A study of Mus musculus with 4 samples.

Results

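Leukocytes leave the blood by a sequence of adhesive contacts, and the 10 genes followed here encode the main partners of that sequence in the mouse. They are the immunoglobulin-like ligands Icam1 and Vcam1, the selectins Selp and Sele, the selectin ligand Selplg, the integrin alpha chains Itgal, Itgam, Itgax and Itga4, and the integrin beta 2 chain Itgb2. The genes were chosen by symbol from the 32285 genes of the deposited matrices, and all 10 were present. Of the 198 antibody-derived tags in the same files, 7 recognised a protein of these genes: CD54 (Icam1), CD106 (Vcam1), CD62P (Selp), CD11a (Itgal), CD11b (Itgam), CD11c (Itgax) and CD49d (Itga4). No tag was matched to Sele, Selplg or Itgb2.

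The study measured RNA and surface protein in the same cells of mouse hearts by CITE-seq, a droplet method in which antibodies carrying DNA barcodes are counted beside the transcripts. Mice of genotype C57BL6J received either Rat IgG antibody (the isotype control) or an agonist antibody against CD40, a receptor of the tumour necrosis factor receptor family carried by antigen-presenting cells. The hearts of 4 mice per treatment were pooled, digested for 20 min at 37 °C, passed through a 40 µm strainer and sorted, so that each treatment was 1 library of pooled animals. The sample labels describe the sort as CD45+DAPI-, whereas the series text names DRAQ5+DAPI- cells, and neither mouse age, antibody dose nor treatment time was in the sources used here. With 1 library per treatment no comparison between treatments had a replicate check: every interval below is an exact 95% interval for counting error only, and no p-value is given.

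Leukocyte capture begins when selectins bind carbohydrate-bearing ligands such as PSGL-1, the product of Selplg, and slow the cell on the vessel wall. Chemokine signals then switch integrins to a high-affinity form: LFA-1 (the Itgal and Itgb2 chains) and Mac-1 (Itgam and Itgb2) bind ICAM-1, and VLA-4 (Itga4 with the beta 1 chain) binds VCAM-1. Itgax pairs with Itgb2 to form CD11c/CD18, widely used as a marker of dendritic cells and of activated macrophages. ICAM-1 and VCAM-1 are best known from activated endothelium, and macrophages also carry them.

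Promoter sequences from RefSeq (GRCm38.p6, 250 bases up to the listed transcript start, plus strand) were found for 6 of the 10 genes, and 4 are shown because the results below contrast these genes. Icam1 is shown as the gene whose tag had the highest ratio between the libraries in phagocytes, Sele as a selectin hardly detected, and Itgam and Itgax as neighbours on chromosome 7 of which only Itgax passed the size rule in phagocytes. Capitals mark matches to GGNNNTTCC (a kappa B-type motif) or TTCNNNGAA (a GAS-type motif), searched on both strands.
Icam1, chr9:21015690-21015939: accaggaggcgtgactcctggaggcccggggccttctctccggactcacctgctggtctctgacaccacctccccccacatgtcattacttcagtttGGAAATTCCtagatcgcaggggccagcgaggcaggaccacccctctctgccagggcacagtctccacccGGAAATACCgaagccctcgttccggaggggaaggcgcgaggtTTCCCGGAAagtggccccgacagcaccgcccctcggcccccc
Sele, chr1:164047984-164048233: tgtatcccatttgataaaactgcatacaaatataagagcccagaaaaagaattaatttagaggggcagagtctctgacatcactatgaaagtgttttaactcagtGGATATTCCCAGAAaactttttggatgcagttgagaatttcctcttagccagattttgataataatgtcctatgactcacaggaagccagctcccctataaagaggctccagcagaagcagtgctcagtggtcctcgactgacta
Itgam, chr7:128062390-128062639: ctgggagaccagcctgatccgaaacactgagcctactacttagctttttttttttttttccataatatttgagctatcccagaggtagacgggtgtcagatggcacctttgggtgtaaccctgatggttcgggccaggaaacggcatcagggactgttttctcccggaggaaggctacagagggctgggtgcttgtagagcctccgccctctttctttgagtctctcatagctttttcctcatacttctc
Itgax, chr7:128129300-128129549: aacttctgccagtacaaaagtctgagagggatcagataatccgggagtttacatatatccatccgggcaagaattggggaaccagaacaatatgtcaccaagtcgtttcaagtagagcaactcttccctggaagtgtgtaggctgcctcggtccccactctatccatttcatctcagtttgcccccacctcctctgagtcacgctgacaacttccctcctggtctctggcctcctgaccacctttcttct

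The Icam1 window held the GAS-type match TTCCCGGAA 42 to 34 bases before the start and kappa B-type matches at 153 to 145 and 84 to 76 bases before it, GGAAATTCC and GGAAATACC. In Sele the GAS-type match TTCCCAGAA lay 140 to 132 bases before the start and overlapped the kappa B-type match GGATATTCC at 145 to 137. Neither motif occurred in the Itgam, Itgax or Itga4 window, and Selp had 1 kappa B-type match, GGAAAGGCC, 14 to 6 bases before its start. No window of the 6 held TTTCNNTTTC, an interferon-response-type motif. Over 32851 RefSeq promoters of the same length, 7.02% held the GAS-type letters, 15.7% the kappa B-type letters and 2.98% the interferon-response-type letters. These matches describe letters only and say nothing about binding. Each window ends at a RefSeq transcript start, which need not be the start of the gene. The Sele window lies inside the gene span given below, and the Itgax window ends past the listed start of its gene.

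The genes lie on 7 chromosomes in GRCm38.p6. Icam1 (ENSMUSG00000037405) spans chr9:21015940-21028814 and Vcam1 (ENSMUSG00000027962) chr3:116110020-116129688. Sele, at chr1:164039614-164058487, and Selp, at chr1:164115264-164150026, are close together. Itgal (chr7:127296139-127335137), Itgam (chr7:128062640-128118491) and Itgax (chr7:128129526-128150657) all lie on chromosome 7. Selplg lies at chr5:113817798-113832528, Itga4 at chr2:79255426-79333114 and Itgb2 at chr10:77530329-77565708.

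Barcodes were kept at 200 or more genes and a mitochondrial share below 10% of UMIs (unique molecular identifiers, each counting 1 captured transcript). By this filter 2558 of 4908 isotype and 4278 of 7087 anti-CD40 barcodes remained, with a median of 5446 and 8284.5 gene UMIs and of 2443 and 2935 tag UMIs. The libraries shared 13 barcodes, 6 of them kept. Cell classes were gated by marker genes, none of them among the 10, and are called "X-like". Mononuclear phagocyte-like cells numbered 884 in the isotype and 2575 in the anti-CD40 library, neutrophil-like cells 151 and 308, NK cell-like cells 135 and 160, T cell-like cells 35 and 147, and B cell-like cells 432 and 16. Endothelial-like cells (43 and 64) and fibroblast-like cells (34 and 52) were also present despite the CD45 gate named in the labels. Droplets that passed more than 1 gate (450 and 448) were left out of the classes. RNA levels are CPM, UMIs of a gene per 1000000 gene UMIs summed over a class, and tag levels are tag CPM, scaled in the same way to all tag UMIs.

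In phagocyte-like cells of the anti-CD40 library the integrin ligand Vcam1, the LFA-1 chain Itgal and the CD11c chain Itgax were higher than in the isotype library, with Vcam1 showing the highest ratio of the genes that had at least 30 UMIs. Icam1 and Itgb2 were higher by less, and Selplg, Itgam and Itga4 lay close to their isotype levels. The selectins gave almost no UMIs in these cells. A gene is said to pass the size rule when its log2 ratio, computed with 10 CPM added to both levels, exceeds log2 of 1.5 (0.58). Of the 8 genes with at least 30 UMIs over both libraries, 3 passed upward, where 5.06% of 12261 genes did, and 0 passed downward, where 9.22% did. The median log2 ratio was 0.49 for the 8 genes and -0.11 for all genes tested.

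Vcam1, the endothelial and macrophage ligand of VLA-4, stood at 8.58 CPM (6.56–11, from 61 UMIs) in isotype phagocyte-like cells and at 101 CPM (97.7–105, from 3118 UMIs) in anti-CD40 ones, 11.8-fold higher (9.16–15.5). The intervals of the libraries are far apart. After every cell was thinned to 1000 UMIs, 1.03% of 777 isotype cells (0.446–2.02) and 8.71% of 2435 anti-CD40 cells (7.62–9.90) had a Vcam1 UMI. In all phagocyte-like cells at full depth those shares were 3.39% and 36.9%, with median depths of 6366.5 and 9771 UMIs. Neutrophil-like cells, used as a background class, gave thinned Vcam1 shares of 0.787% and 0.707%, and unthinned shares of 1.32% and 4.55% at median depths of 3059 and 2980.5 UMIs. The isotype neutrophil-like share lay inside the interval of the isotype phagocyte-like share, and the anti-CD40 neutrophil-like share lay below the interval of the anti-CD40 phagocyte-like share.

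Icam1, the ligand of LFA-1 and Mac-1, was at 122 CPM (114–130) in the isotype and 185 CPM (180–190) in the anti-CD40 phagocyte-like cells, 1.52-fold higher (1.41–1.63). With the added 10 CPM its log2 ratio of 0.56 fell just short of the size rule. The Icam1 share of thinned cells was 8.37% against 16.1%, and of unthinned cells 31.2% against 61.2%. No class free of Icam1 was found to serve as background: the lowest of the isotype classes with at least 50 cells, B cell-like cells with a median depth of 4337.5 UMIs, had a share of 4.08% thinned and 15.05% unthinned.

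Among the integrin chains, Itgal was at 26.3 CPM (22.7–30.3) and 54.5 CPM (51.9–57.2), 2.07-fold higher in the anti-CD40 library (1.78–2.42). Itgax was at 19.0 CPM (15.9–22.5) and 53.9 CPM (51.4–56.6), 2.84-fold higher (2.38–3.41). For neither chain did the intervals of the libraries overlap. The Itgal ratio depended on where the gate was set: with all gate thresholds halved its log2 ratio was -0.043 instead of 0.83. Leiden clusters, which named only 18 isotype cells as phagocytes, gave a log2 ratio of -1.40 for Itgax instead of 1.14. Thinned shares of cells with a UMI were 1.93% and 5.87% for Itgal and 1.80% and 3.86% for Itgax. At full depth the shares were 11.3% and 36.4% for Itgal and 6.11% and 24.8% for Itgax. In isotype B cell-like cells, with a median depth of 4337.5 UMIs, 0 of 392 thinned cells had an Itgax UMI (Clopper-Pearson upper bound 0.937%), and 2 of 432 (0.463%) had one at full depth.

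Itgb2, the beta chain shared by LFA-1, Mac-1 and CD11c/CD18, was at 155 CPM in the isotype and 210 CPM in the anti-CD40 phagocyte-like cells, 1.35-fold higher (1.27–1.44). Itgam, the Mac-1 alpha chain and neighbour of Itgax, was at 186 and 201 CPM, a ratio of 1.08 (1.02–1.15). Itga4, the VLA-4 alpha chain, was at 162 and 158 CPM, a ratio of 0.971 (0.910–1.04), and Selplg was at 213 and 192 CPM, 1.11-fold lower (1.05–1.17). Scaling by TMM, which sets the bulk of genes equal, raised the anti-CD40 levels of this class by 0.22 in log2. The 10 CPM were added after this step, so the log2 ratios moved up by at most 0.22. Selplg turned from -0.14 to 0.07 and Itga4 from -0.04 to 0.16. Under TMM, 5 of the 8 genes passed the size rule upward and 0 downward, Icam1 and Itgb2 being the added ones, against 8.47% and 5.87% of all genes. Of all genes past the rule, 35.4% were higher by CPM and 59.1% by TMM.

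**Figure D1:**
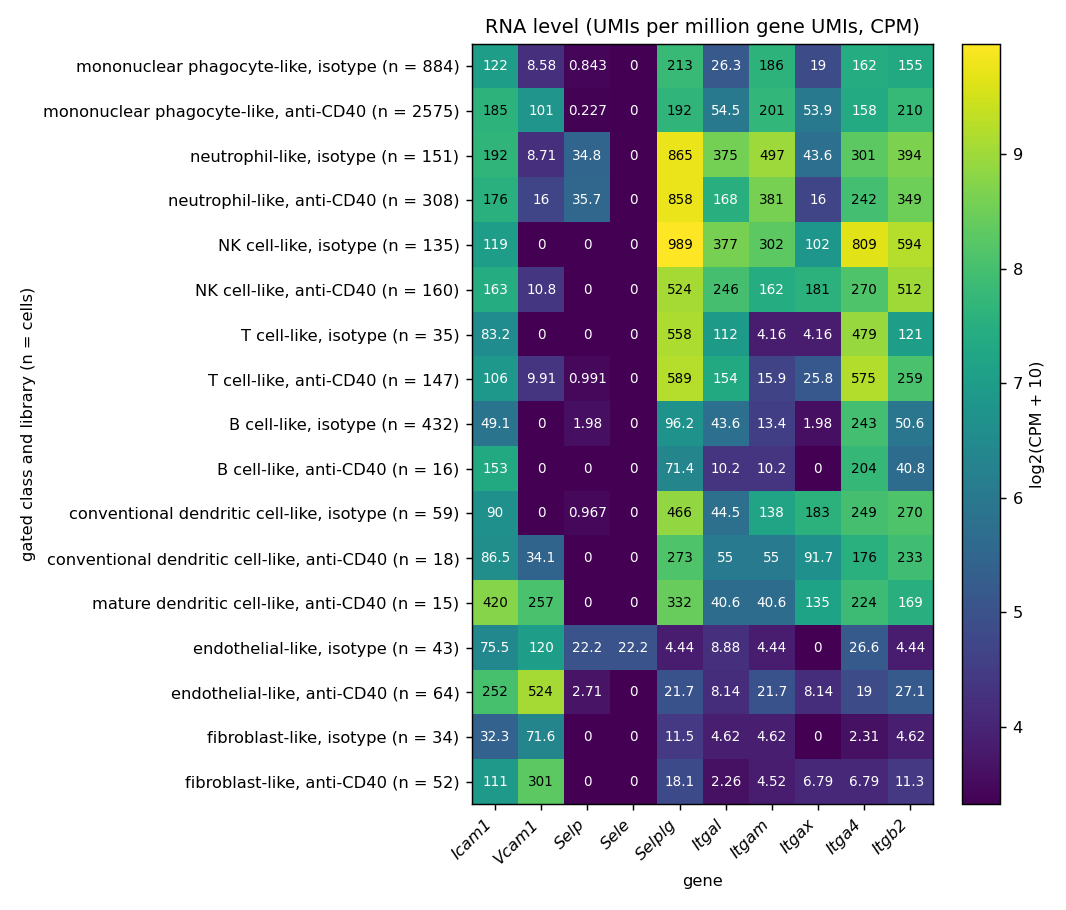
Heat map of the RNA level of the 10 genes (columns) in each gated class and library with at least 10 cells (rows, n being cells), the printed number being CPM and the colour log2 of CPM plus 10. Vcam1 goes from 8.58 to 101 CPM in phagocyte-like cells, and Selp is seen in neutrophil-like cells.

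Other markers in the phagocyte-like cells also differed between the libraries. The summed level of the 8 B cell markers was 369 CPM in the isotype and 25.5 CPM in the anti-CD40 library, that of the neutrophil markers 242 and 359 CPM, and that of the resident macrophage markers 2092 and 563 CPM. Conventional dendritic cell markers summed to 149 and 280 CPM, and T cell and NK cell markers stayed below 40 CPM in both. With only phagocyte-like cells that had fewer than 2 distinct markers each of neutrophils, B, T and NK cells (528 and 937 cells, a choice made after seeing the data), the log2 ratio of Vcam1 was 2.58, that of Itgal 0.94 and that of Itgax 1.01. In that subset Icam1 also passed the size rule at 0.95, and Selplg stood at -0.33. The part of dendritic cell and resident macrophage composition in these ratios was not tested.

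At the cell surface CD54, the Icam1 protein, differed much more than its RNA. The CD54 tag was at 7385 tag CPM in isotype and 59725 in anti-CD40 phagocyte-like cells, 8.09-fold higher (7.99–8.19). The median cell carried 68.3 and 511 CD54 UMIs per 10000 tag UMIs. In the anti-CD40 library 93.2% of cells (2401 of 2575) exceeded the 95th percentile of the isotype cells, so the higher CD54 level was spread over nearly the whole class. Counted per cell without scaling, the mean was 30.5 and 262 CD54 UMIs.

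CD11c, the Itgax protein, was at 705 and 4649 tag CPM in the phagocyte-like cells, 6.60-fold higher in the anti-CD40 library (6.34–6.87), although the Leiden clusters with 18 isotype cells gave a log2 ratio of -0.10. CD106, the Vcam1 protein, was at 169 and 769, 4.55-fold higher (4.19–4.94). In the isotype library that CD106 level was below the highest of the 9 control antibodies, which measure background binding and stood at up to 323 tag CPM, and in the anti-CD40 library it was above their highest level of 299. CD11a, the Itgal protein, was at 4606 and 13145, 2.85-fold higher (2.81–2.90). These increases were uneven over cells: 33.7% of anti-CD40 cells exceeded the isotype 95th percentile for CD11a, 32.9% for CD11c and 24.3% for CD106.

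CD49d, the Itga4 protein, was at 6946 and 8542 tag CPM in phagocyte-like cells, a ratio of 1.23, and 11.9% of anti-CD40 cells exceeded the isotype 95th percentile. Its log2 ratio of 0.30 became -0.072 in the Leiden clusters with 18 isotype cells. CD11b, the Itgam protein, was at 27628 and 24450, 1.13-fold lower in the anti-CD40 library. Its log2 ratio of -0.18 became 0.15 when tags were scaled to the control antibodies, so its direction is not settled by these data. CD62P, the P-selectin protein, was at 347 and 483, a ratio of 1.39 (1.31–1.48), close to the highest control antibody in the isotype library (323) and above it in the anti-CD40 library (299). In direction, tag and RNA matched for Icam1, Vcam1, Itgal and Itgax. The CD106 rise was not particular to phagocyte-like cells. It was 5.76-fold in neutrophil-like, 5.46-fold in T cell-like and 3.60-fold in NK cell-like cells. Those classes had only 18, 10 and 15 Vcam1 UMIs in the anti-CD40 library. How much of the CD106 rise in phagocyte-like cells went with Vcam1 RNA was not tested. The CD54 and CD11c rises were not particular to phagocyte-like cells either. CD54 was 11-fold higher in neutrophil-like, 4.17-fold in fibroblast-like and 3.44-fold in T cell-like cells. CD11c was 19.2-fold higher in T cell-like cells, from only 6 isotype UMIs. It was 4.98-fold higher in B cell-like and 2.84-fold in neutrophil-like cells, but 1.24-fold lower in nonclassical monocyte-like cells.

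**Figure D2:**
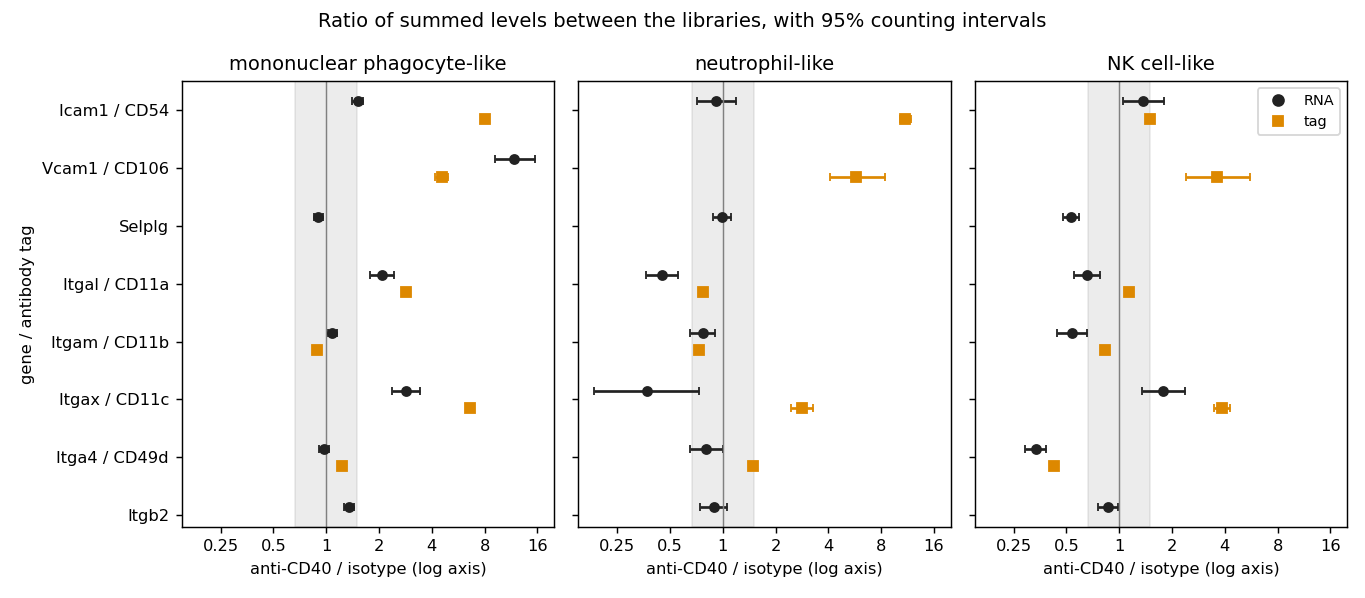
Ratio of the anti-CD40 to the isotype level on a log axis for RNA (circles) and the matching antibody tag (squares) in phagocyte-like, neutrophil-like and NK cell-like cells, with bars for exact 95% counting intervals and a grey band from 1/1.5 to 1.5. CD54 lies at 8.09 in phagocyte-like cells beside an Icam1 RNA ratio of 1.52, whereas Vcam1 RNA lies at 11.8 beside a CD106 ratio of 4.55.

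**Figure D3:**
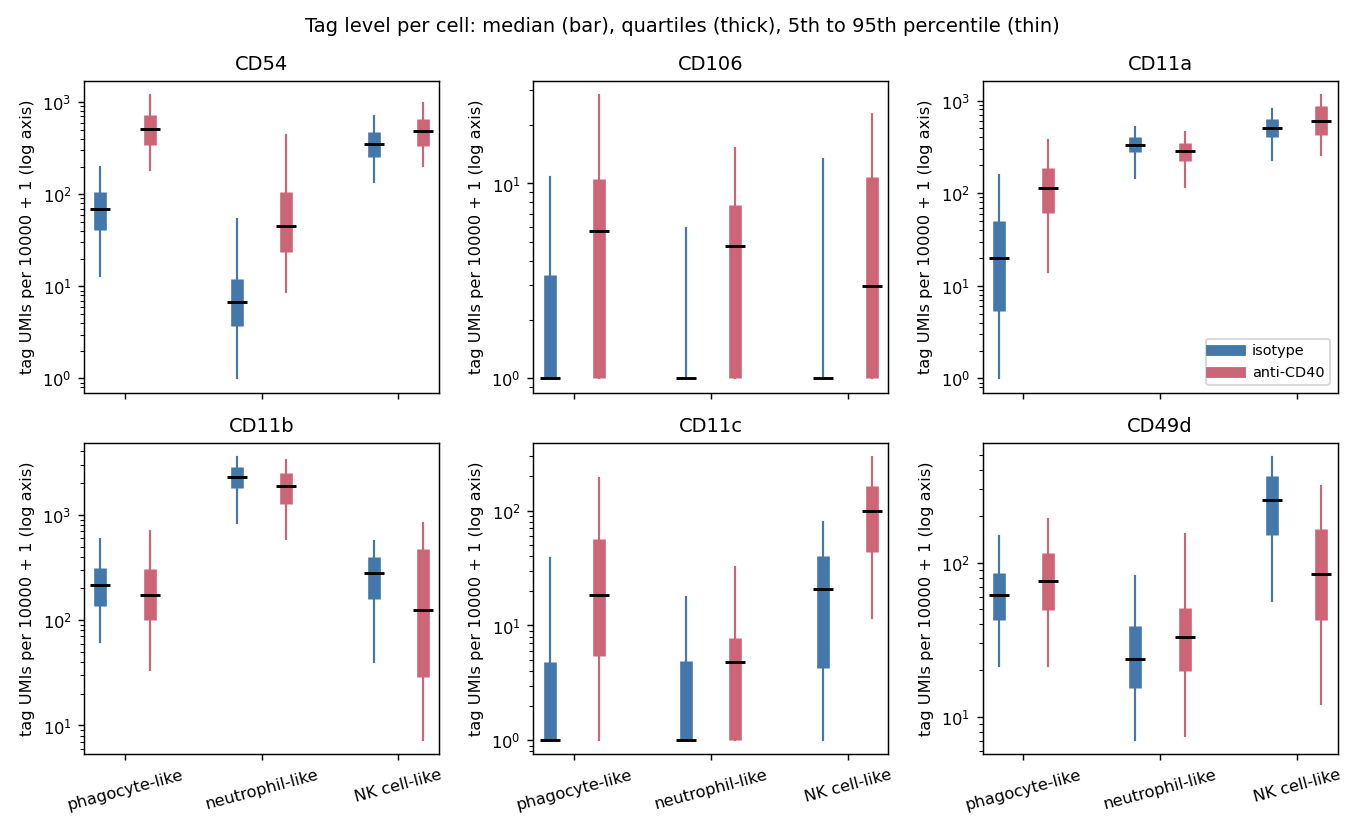
Tag UMIs per 10000 tag UMIs of each cell, plus 1, on a log axis, for 6 tags in 3 classes and both libraries, drawn as median, quartiles and 5th to 95th percentile over cells. The CD54 median of phagocyte-like cells goes from 68.3 to 511, while the CD11b median goes from 217 to 174.

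The phagocyte-like cells were next divided by monocyte and resident macrophage markers, together with cells of no other gate, because resident macrophages and monocyte-derived cells differ in their adhesion receptors. Resident macrophage-like cells numbered 368 in the isotype and 373 in the anti-CD40 library, other phagocyte-like cells 480 and 1777, and the classical monocyte-like subset 101 and 472, with 37 and 33 nonclassical ones. The classical monocyte-like cells came from different gates: 16 of 101 in the isotype and 356 of 472 in the anti-CD40 library had passed the phagocyte gate. Of the nonclassical monocyte-like cells, 3 of 37 and 12 of 33 had passed it. The cells compared in both monocyte-like subsets thus differ in more than treatment.

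Vcam1 was higher in resident macrophage-like cells, from 6.55 to 118 CPM (18.1-fold, 12.0–28.5), in the other phagocyte-like cells, from 10.7 to 115 CPM (10.8-fold, 7.43–16.2), and in classical monocyte-like cells, from 4.99 to 43.7 CPM (8.75-fold, 3.98–24.0). The first of these subsets had nearly equal cell numbers in the libraries, and the other subsets were larger in the anti-CD40 library. Equal numbers do not make the cells alike, and the part of composition in these ratios was not tested. In nonclassical monocyte-like cells Vcam1 had 0 UMIs in the isotype and 5 in the anti-CD40 library. Icam1 ratios were 1.51 in resident macrophage-like, 1.91 in other phagocyte-like, 1.40 in classical and 1.34 in nonclassical monocyte-like cells. The CD54 tag was 8.65-fold higher in resident macrophage-like cells (5726 and 49515 tag CPM), 5.35-fold higher in classical and 5.79-fold higher in nonclassical monocyte-like cells.

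Itgal ran in opposite directions within the subsets. It was higher in resident macrophage-like cells, from 14.2 to 34.3 CPM (2.42-fold, 1.77–3.37), and in the other phagocyte-like cells, from 20.6 to 54.5 CPM (2.64-fold, 2.01–3.54). Classical monocyte-like cells went the other way, from 148 to 70.1 CPM, 2.11-fold lower (1.77–2.51), and nonclassical monocyte-like cells from 1130 to 344 CPM, 3.28-fold lower (2.47–4.41). In tag CPM, CD11a had the same directions. It was 2.14-fold higher in resident macrophage-like and 1.36-fold and 1.54-fold lower in classical and nonclassical monocyte-like cells. Counted per cell without scaling, classical monocyte-like cells went the other way, from a mean of 66.9 to 75.8 CD11a UMIs. Nonclassical ones went from 151 to 144, so the CD11a direction in classical monocyte-like cells depended on scaling.

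Itgax was higher in resident macrophage-like cells (5.46 and 16.5 CPM, 3.02-fold), in other phagocyte-like cells (32.8 and 69.1 CPM, 2.11-fold) and in classical monocyte-like cells (15.8 and 49.0 CPM, 3.10-fold). Nonclassical monocyte-like cells had 95.7 and 106 CPM of Itgax, above the other 3 subsets beyond counting error in the isotype library, and their CD11c tag was at 10744 and 8668 tag CPM. Itga4 was 2.07-fold lower in classical monocyte-like cells (412 and 199 CPM, 1.87–2.29), and so was the CD49d tag (1.82-fold). In nonclassical monocyte-like cells Itga4 RNA was at 804 and 872 CPM while the CD49d tag was 2.14-fold lower, so RNA and tag parted there.

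Itgam was at 205 and 267 CPM in resident macrophage-like cells (1.31-fold higher) and at 342 and 217 CPM in classical monocyte-like cells (1.58-fold lower, 1.41–1.76), where the CD11b tag was 2.31-fold lower. Selplg was at 204 and 203 CPM in resident macrophage-like cells and at 319 and 208 CPM in classical monocyte-like cells, 1.53-fold lower. Itgb2 was at 147 and 208 CPM in the other phagocyte-like cells and at 296 and 239 CPM in classical monocyte-like cells. For integrin chains the classical monocyte-like cells thus ran lower in the anti-CD40 library, apart from Itgax.

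**Figure D4:**
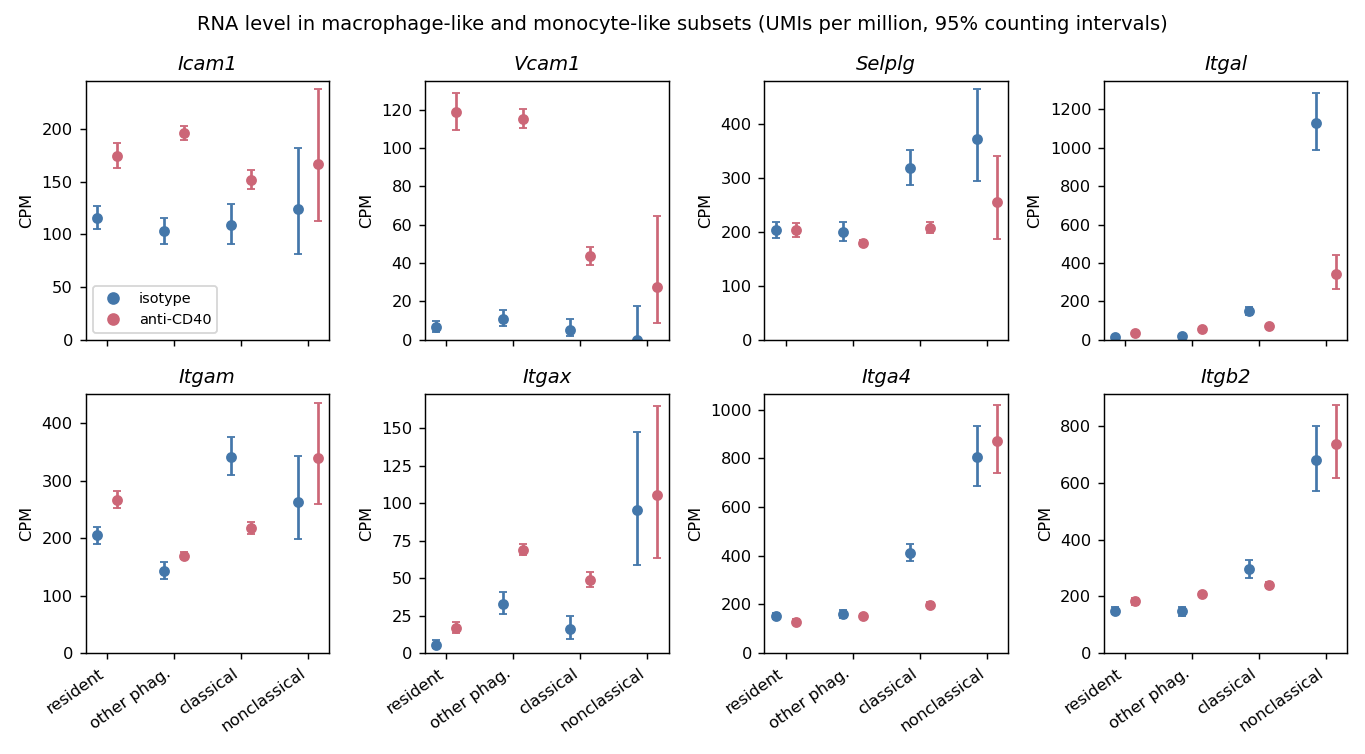
RNA level in CPM, with exact 95% counting intervals, of 8 genes in resident macrophage-like, other phagocyte-like, classical and nonclassical monocyte-like cells of each library. Itgal goes from 1130 to 344 CPM in nonclassical monocyte-like cells and from 14.2 to 34.3 CPM in resident macrophage-like cells.

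Neutrophil-like cells had lower RNA of the integrin chains Itgal and Itgax in the anti-CD40 library, and their Icam1 RNA did not differ beyond counting error while the CD54 tag was 11-fold higher. Of the 8 genes with at least 30 UMIs, 0 passed the size rule upward, where 15.3% of 4518 genes did, and 2 passed downward, where 25.1% did. The median log2 ratio of the 8 genes was -0.23, against -0.20 for all genes, so the genes as a whole moved like the background. TMM scaling shifted this class by 0.24, left the same 2 genes past the rule downward and gave 20.7% of genes higher and 16% lower.

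Isotype neutrophil-like cells had 375 CPM of Itgal (172 UMIs) and anti-CD40 ones 168 CPM (189 UMIs), 2.22-fold lower (1.80–2.75), and the CD11a tag was 1.30-fold lower. In Leiden clusters the CD11a log2 ratio was 0.089 instead of -0.38. Thinned cells with an Itgal UMI made up 35.4% and 13.4% (56.3% and 39.0% unthinned). Itgax was at 43.6 and 16 CPM, 2.71-fold lower (1.36–5.44), but on only 20 and 18 UMIs, and its CD11c tag went the other way, from 480 to 1363 tag CPM. Keeping droplets that passed 2 gates changed the Itgax log2 ratio from -1.04 to -0.17, and Leiden clusters gave 0.67.

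Icam1 was at 192 and 176 CPM in neutrophil-like cells, a ratio of 0.916 (0.709–1.19) that turned upward under TMM, to a log2 ratio of 0.11. The CD54 tag in the same cells was at 1483 and 16335 tag CPM, and 43.8% of the anti-CD40 cells exceeded the isotype 95th percentile. Vcam1 had only 4 and 18 UMIs there, while its CD106 tag was at 73.0 and 420.4 tag CPM beside a highest control antibody of 104 and 108. Itgam, the chain of Mac-1, was at 497 and 381 CPM, 1.30-fold lower (1.10–1.53), or a log2 ratio of 0.19 in Leiden clusters instead of -0.37, with its CD11b tag at 225500 and 166041 tag CPM. Selplg, at 865 and 858 CPM, Itga4, at 301 and 242 CPM, and Itgb2, at 394 and 349 CPM, did not pass the size rule. The summed phagocyte markers in this gate were 636 CPM in the isotype and 1260 CPM in the anti-CD40 library, and the classical monocyte markers 353 and 4440 CPM; their part in these differences was not tested.

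NK cell-like cells showed lower RNA of Itga4, Selplg, Itgam and Itgal and higher RNA of Itgax in the anti-CD40 library. Of the 7 genes with at least 30 UMIs, 1 passed the size rule upward, where 11% of 6743 genes did, and 4 passed downward, where 18.3% did. The median log2 ratio was -0.60 for the 7 genes and -0.12 for all genes. TMM scaling shifted this class by 0.15 and left 3 genes lower, without Itgal, against 15.3% of genes higher and 12.5% lower.

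Isotype NK cell-like cells had 809 CPM of Itga4 (518 UMIs) and anti-CD40 ones 270 CPM (376 UMIs), 3.0-fold lower (2.62–3.43). Cells with an Itga4 UMI made up 48.4% and 24.1% after thinning (86.7% and 63.1% before). The CD49d tag was also lower, 23783 and 10154 tag CPM or 2.34-fold (2.23–2.46), and 0 of the 160 anti-CD40 cells exceeded the isotype 95th percentile. RNA and protein of the VLA-4 alpha chain were thus both lower in the anti-CD40 library.

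Selplg in NK cell-like cells was at 989 and 524 CPM, 1.89-fold lower (1.69–2.10), with a UMI in 63.5% and 47.5% of thinned cells (96.3% and 92.5% unthinned). Itgam was at 302 and 162 CPM, 1.87-fold lower (1.53–2.27), and Itgal at 377 and 246 CPM, 1.53-fold lower (1.29–1.81). The CD11a tag did not share the Itgal direction: it was at 51370 and 58215 tag CPM, a ratio of 1.13, although Leiden clusters gave a log2 ratio of -0.12 instead of 0.18. For Itgam the CD11b tag sum was 1.21-fold lower, but the spread over cells changed: the median went from 281 per 10000 (quartiles 157 and 399.9) to 125 (28.1 and 477). Counted per cell without scaling, the log2 ratio of CD11b was 0.38 instead of -0.28.

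Itgax in NK cell-like cells was at 102 CPM (65 UMIs) and 181 CPM (252 UMIs), 1.78-fold higher (1.35–2.38). Its CD11c tag was 3.84-fold higher, from 2648 to 10173 tag CPM, and 58.1% of anti-CD40 cells exceeded the isotype 95th percentile. Itgb2 was at 594 and 512 CPM, and Icam1 at 119 and 163 CPM (1.37-fold, 1.05–1.80), with the CD106 tag of its fellow ligand at 170.4 and 613 tag CPM beside a highest control antibody of 183 and 176. Thinned to 1000 UMIs per cell, the log2 ratios of Itgal, Itgam and Itgax in NK cell-like cells were -0.35, -0.35 and 0.50, none past the size rule. In this gate the summed phagocyte markers were 281 CPM in the isotype and 626 CPM in the anti-CD40 library and the T cell markers 48.4 and 150 CPM; their part was not tested.

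T cell-like cells were few in the isotype library (35 cells, against 147), so their isotype levels rest on few UMIs. Itgb2 was at 121 CPM (29 UMIs) and 259 CPM (261 UMIs), 2.14-fold higher (1.46–3.26), and the CD11a tag was 1.99-fold higher, with 59.2% of anti-CD40 cells above the isotype 95th percentile. Itga4 was at 479 and 575 CPM and Selplg at 558 and 589 CPM. TMM shifted the anti-CD40 levels of this class by -0.22 in log2. The CD49d tag was 1.89-fold and the CD54 tag 3.44-fold higher, whereas Icam1 RNA was at 83.2 and 106 CPM.

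B cell-like cells (432 and 16) and conventional dendritic cell-like cells (59 and 18) were scarce in the anti-CD40 library. Isotype B cell-like cells had little Icam1 (49.1 CPM) or Itgb2 (50.6 CPM) and no Vcam1 UMI, and their CD54 tag was at 6136 tag CPM against 21567 in the 16 anti-CD40 cells. Conventional dendritic cell-like cells were at 466 and 273 CPM of Selplg, 1.71-fold lower (1.38–2.14), and at 183 and 91.7 CPM of Itgax, the chain that defines them in many protocols. Their CD11c tag was at 18620 and 21457 tag CPM, so the lower Itgax RNA had no lower tag beside it. The 15 mature dendritic cell-like cells of the anti-CD40 library had 420 CPM of Icam1, 257 CPM of Vcam1 and 177399 CD54 tag CPM, and the isotype library had 1 such cell.

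Endothelial-like cells, the class in which ICAM-1, VCAM-1 and the selectins act on blood leukocytes, were few and gave few UMIs. Isotype endothelial-like cells had 120 CPM of Vcam1 (27 UMIs) and anti-CD40 ones 524 CPM (193 UMIs), 4.37-fold higher (2.91–6.80). The isotype UMIs came from 2 of 43 cells (4.65%), whereas 31 of 64 anti-CD40 cells (48.4%) had Vcam1. Icam1 was at 75.5 CPM (17 UMIs) and 252 CPM (93 UMIs), 3.34-fold higher (1.98–5.98), with UMIs in 4 of 43 (9.30%) and 29 of 64 (45.3%) cells. Median depths of these cells were 4012 and 3907 gene UMIs.

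The tags of endothelial-like cells ran the same way, with CD54 at 23420 and 42479 tag CPM (1.81-fold) and CD106 at 1202 and 2111 (1.76-fold), where the highest control antibody was at 237 and 185. Fibroblast-like cells had Vcam1 at 71.6 and 301 CPM, 4.20-fold higher (2.83–6.43), in 41.2% and 73.1% of cells, and Icam1 at 32.3 and 111 CPM, 3.43-fold higher (1.86–6.72). Their CD54 tag was at 40575 and 169355 tag CPM, 4.17-fold higher (3.96–4.40), and CD106 at 3016 and 8492, 2.82-fold higher (2.30–3.47). The highest control antibody in fibroblast-like cells was at 1831 and 604 tag CPM, so the isotype CD106 level was not far above background. Both stromal classes thus held more Icam1 and Vcam1 RNA and tag in the anti-CD40 library. The summed phagocyte markers in these gates were 227 and 703 CPM in endothelial-like and 231 and 563 CPM in fibroblast-like cells, and their part was not tested.

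The selectins were rare. E-selectin, made by activated endothelium, had 6 Sele UMIs in 2 isotype cells and 1 in 1 anti-CD40 cell, and 5 of the isotype UMIs lay in 1 endothelial-like cell. Selp had 59 UMIs in 48 isotype cells and 89 UMIs in 76 anti-CD40 cells, of which only 5 and 1 were in endothelial-like cells. The endothelial-like UMIs of Sele (5 and 0) and of Selp (5 and 1) came from at most 1 cell in each library, so neither selectin could be compared between treatments in this class.

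P-selectin is stored in platelets and endothelium, yet the single-gate class holding most Selp UMIs was the neutrophil-like one, at 34.8 CPM (16 UMIs) and 35.7 CPM (40 UMIs), a ratio of 1.02 (0.56–1.96). Droplets that passed more than 1 gate, which were left out of the classes, held a further 26 of the 59 and 38 of the 89 Selp UMIs. Thinned to 1000 UMIs, 3.94% and 3.53% of neutrophil-like cells had a Selp UMI (8.61% and 11.7% unthinned). Of the 13 and 36 neutrophil-like cells with Selp, 0 had a UMI of a platelet marker gene, while 3 of 138 and 3 of 272 cells without Selp had one. Platelet marker UMIs were too rare in either group for these counts to tell where the Selp RNA came from. In the phagocyte-like cells, with greater depth, Selp gave 6 and 7 UMIs. The CD62P tag of neutrophil-like cells was at 177 and 180 tag CPM, against 104 and 108 for the highest control antibody.

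Across classes of at least 50 cells in the isotype library, each integrin chain had its own order of levels, given in CPM and compared only within a gene. Itgal was highest in NK cell-like (377) and neutrophil-like cells (375), whose intervals overlapped, then far lower in conventional dendritic cell-like (44.5), B cell-like (43.6) and phagocyte-like cells (26.3). Itgam ran from neutrophil-like (497) through NK cell-like (302), phagocyte-like (186) and dendritic (138) to B cell-like cells (13.4), each neighbour apart. Itgax was highest in dendritic (183), then NK cell-like (102), neutrophil-like (43.6), phagocyte-like (19.0) and B cell-like cells (1.98). Itga4 was highest in NK cell-like cells (809) and lowest in phagocyte-like cells (162), with neutrophil-like (301), dendritic (249) and B cell-like cells (243) overlapping between them.

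Itgb2 followed NK cell-like (594), neutrophil-like (394), dendritic (270), phagocyte-like (155) and B cell-like cells (50.6). Selplg was highest in NK cell-like (989) and neutrophil-like cells (865), which overlapped, and lowest in B cell-like cells (96.2). Icam1 was highest in neutrophil-like cells (192), followed by phagocyte-like (122), NK cell-like (119) and dendritic cells (90.0). There the NK cell-like interval overlapped those of both neighbours, while the phagocyte-like and dendritic intervals lay apart. The CD54 tag had another order in the isotype library, with neutrophil-like cells lowest (1483 tag CPM). It was highest in NK cell-like (36779), then dendritic (27155), phagocyte-like (7385) and B cell-like cells (6136). In the anti-CD40 library the classes of at least 50 cells were others: T cell-like, endothelial-like and fibroblast-like cells entered, and B cell-like and dendritic cells dropped out. Phagocyte-like cells (53.9) stood above neutrophil-like cells (16) for Itgax there, the reverse of the isotype library. For Itga4, T cell-like cells, not ranked in the isotype library, were highest (575) and NK cell-like (270) and neutrophil-like cells (242) overlapped. For Itgam, phagocyte-like cells (201) stood above NK cell-like cells (162), again the reverse of the isotype library. Selplg there was highest in neutrophil-like cells (858), with T cell-like (589) and NK cell-like cells (524) overlapping below.

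RNA and tag were also set side by side within single cells of the anti-CD40 library, thinned to 1000 gene UMIs. Phagocyte-like cells with an Itgax UMI (94 cells) had a median of 57.4 CD11c tags per 10000, against 16.8 in the 2341 cells without. For Vcam1 the CD106 medians were 7.99 (212 cells) and 4.49, and for Itgal the CD11a medians were 154 and 110. Icam1 made little difference to CD54, with medians of 539 and 516, so cells without a captured Icam1 UMI carried nearly as much CD54. In NK cell-like cells the 27 cells with an Itgam UMI had a CD11b median of 594 against 77.3 in the 131 without, a wider gap than the 365 and 268 of the isotype library. For Itga4 in NK cell-like cells the CD49d medians were 162 and 68.8, and in T cell-like cells 242 and 163. These splits describe cells of 1 library and carry no test.

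The rest of the adhesion machinery in phagocyte-like cells was read from 4 further lists, with 5.06% of all genes higher and 9.22% lower by the size rule as the background. Of 16 other integrin subunits, 9 had at least 30 UMIs, of which 1 was higher and 3 were lower. Itgb7, the partner of Itga4 in gut-homing receptors, was at 20.9 and 56.3 CPM (2.69-fold higher). Itgb5, a subunit of a vitronectin receptor, was at 156 and 56.8 CPM (2.75-fold lower), Itga6, a laminin receptor chain, at 44.6 and 15.7 CPM (2.84-fold lower), and Itga9 at 52.0 and 26.8 CPM (1.94-fold lower). The median log2 ratio of this list was -0.14.

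Of 13 integrin activation genes, 1 was higher, 2 were lower and 10 did not pass, with a median log2 ratio of 0.08. Sharpin, which restrains integrin activation, was at 26.3 and 52.7 CPM, Rasgrp2, an activator of Rap1, at 34.4 and 7.76 CPM, and Cyth1 at 73.5 and 27.3 CPM. Of 11 selectin ligands and glycosylation genes, 1 was higher and 2 were lower, with a median of 0.02. Spn, which encodes the sialomucin CD43 and also served as a nonclassical monocyte marker, was at 28.1 and 93.4 CPM. Gcnt1, an enzyme that builds the branched sugars selectins bind, was at 30.4 and 15.7 CPM.

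Of 13 junction and other immunoglobulin adhesion genes, 12 were in the files and 8 had at least 30 UMIs, of which 1 was higher, 1 lower and 6 did not pass. Cd47, the receptor of SIRP alpha, was at 240.0 and 372 CPM (1.55-fold higher), and Pecam1, a homophilic adhesion molecule of junctions, at 18.6 and 5.74 CPM (3.23-fold lower). The list's median log2 ratio was 0.04. None of the 4 lists had more than 1 gene higher.

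For each member with at least 200 UMIs, the genes whose log2 level over 11 class-by-library points was most alike were ranked by Pearson's r, as a description over points that share libraries and depth. Vcam1 was most like Fscn1 (0.961), followed by Ifi44 (0.960) and Phf11d (0.947). Fscn1 served here as a mature dendritic cell marker, but that class, with 1 and 15 cells, was not among the points. Selplg was most like Arhgap9 (0.967) and Itgb2 (0.965), the only member among the first 3 genes of another member. Itgam was most like Tyrobp (0.978) and Fcer1g (0.959), Itga4 like Psd4 (0.983) and Dock2 (0.978), Itgb2 like Cdc42 (0.974) and Prex1 (0.969), and Itgal like Dusp5 (0.958) and Hcst (0.951). Icam1 had no close likeness, its highest r being 0.872 with Tmbim6, and Itgax was at 0.907 with Gm36723.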

How the data were processed

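RNA and antibody tags were counted in 2 libraries of pooled hearts. The files hold raw UMI counts per gene and per tag, deposited unnormalised by the authors, made with Cell Ranger 6.0.1 per the file headers, whereas the submitters' processing notes name Cell Ranger 3 and Seurat 3 and the builds mm10 and GRCh38 without roles. Members, gene lists and comparisons were chosen with earlier results of these data known.

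The cell filter asked for 200 or more genes and a mitochondrial share below 10%. A class required at least 3 distinct markers and a marker sum above 8 to 64 per 10000 UMIs. Thresholds were set after seeing marker sums but without member values. Subsets of monocytes were gated among phagocyte-like and ungated cells, since most isotype monocytes lay outside the phagocyte gate. No doublet caller was run, and droplets passing more than 1 gate were left out. Counts were summed per class, with exact Poisson, conditional binomial (ratios) and Clopper-Pearson (shares) intervals at 95%. Log2 ratios used 10 CPM added to both levels and genes with at least 30 UMIs. Intervals cover counting error only, since 1 library per group leaves no replicate.

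Named genes were the members always and, per list, at most the 4 largest log2 ratios in size in phagocyte-like cells. The values of 1 gene so chosen are not reported here. Leaving out phagocyte-like cells with markers of other leukocytes was chosen after seeing the data. Interval code was tested on simulated data. Promoters came from the RefSeq table of GRCm38.p6. Python 3.11.15, numpy 2.4.6, scipy 1.17.1, pandas 2.3.3, scanpy 1.11.5 with leidenalg 0.10.2, matplotlib 3.10.9, R 4.3.3 and edgeR 4.0.16 (scaling factors only, no test) were used.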

Additional observations from a re-analysis of the deposited data

Results flagged for a closer look

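Itgal and Itgax had ratios of opposite direction in different classes, each past the size rule. The log2 ratio of Itgal in phagocyte-like cells exceeded that in neutrophil-like cells by 1.94 and that in NK cell-like cells by 1.43. For Itgax the log2 ratio exceeded that of neutrophil-like cells by 2.18 in phagocyte-like and by 1.82 in NK cell-like cells. With 1 library per treatment these differences between classes were not tested.

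Barcodes left out by the cell filter (2350 isotype and 2809 anti-CD40) also showed higher RNA of some members in the anti-CD40 library. No main comparison used them, but an alternative filter with a mitochondrial share below 20% took some of them in. Vcam1 was at 9.13 and 106 CPM there, 11.6-fold higher, Itgax at 12.0 and 62.2 CPM, 5.18-fold, Icam1 at 81.2 and 211 CPM, 2.60-fold, Itgb2 at 92.5 and 160 CPM, 1.73-fold, and Itgam at 114 and 183 CPM, 1.6-fold. Selplg, at 166 and 170 CPM, and Itga4, at 261 and 251 CPM, were close to their isotype levels, and Selp had 8 and 6 UMIs. For these values the barcodes were not gated into classes, and the difference was not tested.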

How the results depend on the processing

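No paired analysis was possible because each treatment was 1 library of pooled hearts. Of 25 log2 ratios past 1.5-fold among 48, 21 kept their sign and 15 stayed past 1.5-fold under every alternative run. Leiden clusters in place of gates named only 18 isotype and 897 anti-CD40 cells as phagocytes and left 892 and 1827 unnamed. In those phagocyte-like cells Vcam1 had a log2 ratio of 4.07 (2.58 by gates), the CD54 tag 2.12 (3.01 by gates), Itgax RNA -1.40, the CD11c tag -0.10, and 1 member was past the rule downward. Itgax RNA in neutrophil-like clusters was at 0.67. With 1 CPM added in place of 10 Vcam1 was at 3.42. The CD54 log2 ratio was 2.96 when cells needed 500 genes and a mitochondrial share below 5%, 3.11 as raw tag UMIs per cell, 3.34 scaled to the control antibodies, 2.90 as the median over cells and 2.88 without cells carrying markers of other leukocytes. The members higher in phagocyte-like cells numbered 5 by TMM and 5 by median-of-ratios scaling, against 3 by CPM. With gate thresholds halved, Itgal in phagocyte-like cells was at -0.043; the nonclassical monocyte-like cells, at 1130 CPM of Itgal in the isotype library, mostly came from outside the phagocyte gate (34 of 37), and the cause was not tested. Depth limits Sele and endothelial Selp.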
